A study of Mus musculus with 4 samples.

Results

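The genes described here are 6 that act on the granulosa side of early ovary fate, chosen by name as Foxl2, Fst, Bmp2, Irx3, Irx5 and Runx1, out of 21495 genes in a table of single-cell UMI counts (a UMI marks 1 captured RNA molecule). All 6 had UMIs in each of the 4 samples. The study asked what the loss of the miR-17~92 microRNA cluster does to cells of the mouse gonad when sex is decided. Mouse gonads with the attached mesonephros were profiled with 10x Genomics 3′ chemistry as 1 pooled sample per group, so no test between groups was possible. The XY KO samples, of embryonic day E11.5 and E11.75 and called the E11.5 KO and the E11.75 KO below, came from embryos made by tetraploid complementation from XY G4 embryonic stem cells in which the cluster had been deleted on both alleles with CRISPR/Cas9. The XY control of E11.5 came from the same parental G4 line, and the XX control of E11.5 came from crosses of C57BL/6J males with 129 females, so that sex and the way the embryos were made cannot be told apart between these controls. The labels give all samples the strain C57BL/6 x 129S4/SvJae. No control of E11.75 is analysed here, so that stage and deletion cannot be told apart in comparisons of that KO sample with the XY control.

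Supporting cells of the gonad arise from a pre-supporting progenitor that turns into a Sertoli cell in the testis or a granulosa cell in the ovary. SRY and its target SOX9 start the Sertoli path, whereas WNT4, RSPO1 and beta-catenin signalling and later FOXL2 hold the granulosa path. FOXL2 is a forkhead transcription factor that keeps granulosa cells from turning into Sertoli cells, and RUNX1 is a Runt-domain factor of early supporting cells that shares much of its genomic occupancy with FOXL2 in the fetal ovary. Follistatin, the product of Fst, is a secreted inhibitor of activins. BMP2 is a secreted ligand of the bone morphogenetic protein pathway and acts upstream of Fst in the early ovary. IRX3 and IRX5 are Iroquois homeobox factors encoded by neighbouring genes, needed together for granulosa cells and germ cells to make contact in follicles.

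MicroRNAs bind messenger RNAs mostly through the seed, bases 2 to 8 of the mature strand. The deleted cluster lies on mouse chromosome 14 and encodes 4 seed families. Its mature strands are shown because their seeds define the sites searched in the 6 genes. The sequences are those of RefSeq on GRCm38.p6, spanning chr14:115043684-115044496 on the plus strand, with the seed in capitals:
mmu-miR-17-5p: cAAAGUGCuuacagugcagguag
mmu-miR-20a-5p: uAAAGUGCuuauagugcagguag
mmu-miR-18a-5p: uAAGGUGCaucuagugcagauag
mmu-miR-19a-3p: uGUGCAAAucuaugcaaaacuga
mmu-miR-19b-3p: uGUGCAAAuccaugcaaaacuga
mmu-miR-92a-3p: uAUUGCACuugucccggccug

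The longest annotated 3′ UTR of each gene in GENCODE M21 (mm10) was read on its own strand for the seed matches GCACTTT (miR-17 family), GCACCTT (miR-18), TTTGCAC (miR-19) and GTGCAAT (miR-92), called 7mer-m8. A match to bases 2 to 7 followed by an A was called 7mer-A1, and a site with both an 8mer. The sites found follow, all in 4 of the genes, with the matching letters in capitals and 11 bases on either side, because they show which of the 6 genes hold a site for the deleted miRNAs:
Foxl2, miR-17 7mer-m8, chr9:98958032-98958060 (+): agggaactagaGCACTTTtgttgtgtttg
Fst, miR-92 7mer-m8, chr13:114452323-114452351 (-): accatgtaaatGTGCAATgtatataaaag
Bmp2, miR-17 7mer-A1, chr2:133561793-133561821 (+): aaaccagctgaCACTTTAatatttcccaa
Bmp2, miR-19 7mer-A1, chr2:133562180-133562208 (+): gagcaaagtgcTTGCACActtgctgtctg
Runx1, miR-18 8mer, chr16:92605361-92605390 (-): ttttcttttccGCACCTTAtcgattgcaaa
Runx1, miR-17 7mer-m8, chr16:92603799-92603827 (-): atagagcagcaGCACTTTggtaacctgtg
Runx1, miR-18 7mer-A1, chr16:92602041-92602069 (-): ttttttaagttCACCTTAtgttctaggag

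Foxl2 (ENSMUSG00000050397.4, chr9:98955288-98958543) has a 3′ UTR of 1755 bases and Fst (ENSMUSG00000021765.9, chr13:114452290-114458951) one of 1514 bases, each with 1 site. Bmp2 (ENSMUSG00000027358.6, chr2:133552159-133562885) holds 2 sites in 1170 bases, and Runx1 (ENSMUSG00000022952.17, chr16:92601466-92826149) holds 3 in 4189 bases. The short 3′ UTRs of Irx3 (ENSMUSG00000031734.13, chr8:91798525-91802067, 397 bases) and Irx5 (ENSMUSG00000031737.11, chr8:92357625-92376286, 560 bases) held none of these letters. The Iroquois pair lies on chromosome 8 with 555557 bases between the genes. Of 17348 genes with an annotated 3′ UTR, 45.2% held a site of any of the 4 families and 12.7% an 8mer, so that having a site does not set these genes apart. A match is a description of letters and was not tested here as a binding site. The study describes Foxl2 as holding a proven miR-17 site in its 3′ UTR. It reports that deleting that site left sex differentiation unchanged.

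The table held 23527 cells of the XY control, 17057 of the E11.5 KO, 8492 of the E11.75 KO and 3669 of the XX control, with 105192238, 90233642, 37841392 and 67952558 UMIs. XX cells were deeper, with a median of 15509 UMIs against 3893 to 4763 in the XY samples, and 450 of them reached 30000 UMIs, a limit applied to XY cells only. Of 52400 cell barcodes, 285 (0.544%) occurred in more than 1 sample. Mir17hg, the host transcript of the cluster, stood at 19.8 CPM (UMIs per 1000000) in the XY control, 155.8 in the E11.5 KO, 161 in the E11.75 KO and 18.2 in the XX control over all cells. Where its 3′ tags lie relative to the deleted part was not known, so this value separates KO from control libraries and checks nothing about the deletion. Early gonadal somatic markers (Wt1, Nr5a1, Gata4, Lhx9 and Emx2) were all detected in the cells deposited as bipotential progenitors and called pre-supporting here, with summed levels of 1359 to 2047 CPM. They summed to 1486 to 2196 CPM in the coelomic epithelium, so they do not set pre-supporting cells apart from it.

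Levels are given first in pre-supporting cells, the progenitors of granulosa cells. In every E11.5 sample, however, most Bmp2, Irx3 and Irx5 UMIs lay in other types. The same held for Fst and Runx1 in the XY control and the E11.5 KO. Among the 4 samples the E11.75 KO had the highest level in pre-supporting cells for all but Runx1. Values are CPM of summed UMIs over 1641 cells of the XY control, 1084 of the E11.5 KO, 924 of the E11.75 KO and 352 of the XX control. Intervals are exact 95% Poisson or binomial intervals, which cover counting error only and not the spread between embryos. The comparisons share samples, the XY control in 3 of them and the E11.75 KO in 2, so they are not independent.

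Foxl2 stood at 10.1 CPM (8.05 to 12.6, 80 UMIs) in the XY control and 13.4 (10.7 to 16.7) in the E11.5 KO. It reached 45.1 (39.2 to 51.7, 207 UMIs) in the E11.75 KO, against 16.7 (13.7 to 20.03) in the XX control. The factor was thus highest in the later KO sample, 4.43-fold over the XY control (3.42 to 5.83) and 3.34-fold over the E11.5 KO (2.58 to 4.40). The E11.5 KO could not be told from the XY control in pre-supporting cells (1.32-fold, 0.960 to 1.83), but with Sertoli cells added to them, which are frequent in the XY control and scarce in the E11.5 KO, the log2 ratio went from 0.40 to 0.98 (0.52 to 1.43). The XX control was 1.64-fold higher (1.22 to 2.21).

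Fst stood at 117 CPM (109 to 124) in the XY control, 111 (103 to 120) in the E11.5 KO, 402 (384 to 421) in the E11.75 KO and 237 (225 to 249) in the XX control. As for Foxl2, the E11.75 KO was highest and the XX control next. The E11.75 KO was 3.45-fold over the XY control (3.19 to 3.74), the XX control 2.03-fold (1.87 to 2.21), and the E11.5 KO 0.951-fold (0.859 to 1.051). With Sertoli cells added, that last log2 ratio went from -0.073 to 0.49, so its direction depended on which cells were summed. The technical replicates of the XX control, so named in the methods, gave 261 and 214 CPM, a gap wider than their counting intervals (244 to 279 and 199 to 230), so these intervals understate the error of a sample.

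Bmp2 was higher in the E11.5 KO than in the XY control by a margin above counting error. It stood at 33.9 CPM (29.9 to 38.2) in the XY control, 59.7 (53.7 to 66.2) in the E11.5 KO, 154 (143 to 166) in the E11.75 KO and 39.7 (35.1 to 44.7) in the XX control. The KO was 1.76-fold higher at E11.5 (1.501 to 2.07) and 4.54-fold higher at E11.75 (3.94 to 5.25). The XX control was not separated from the XY control in pre-supporting cells (1.17-fold, 0.985 to 1.39). With Sertoli cells added its log2 ratio was 0.77 (0.52 to 1.02), so that this too depended on the cells summed. The XY control adds 752 Sertoli cells with 11 Bmp2 UMIs and the XX control 2 cells, so this step mainly lowers the XY level.

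The Iroquois genes had the steepest difference between the KO stages. Irx3 stood at 18.4 CPM (15.5 to 21.6) in the XY control, 19.1 (15.7 to 22.9) in the E11.5 KO, 132 (122 to 143) in the E11.75 KO and 21.7 (18.3 to 25.5) in the XX control. The 3 samples of E11.5 overlapped, and the E11.75 KO was 7.16-fold over the XY control (5.98 to 8.67). With Sertoli cells added the log2 ratios over the XY control were 0.41 (0.052 to 0.76) in the E11.5 KO and 0.62 (0.29 to 0.94) in the XX control. Those added cells were mostly of the XY control (752 cells with 24 Irx3 UMIs), whose level they lower. Irx5 was sparse, with 12, 16, 82 and 21 UMIs in the same order of samples, or 1.52, 2.65, 17.9 and 3.10 CPM. Its ratio of the E11.75 KO to the XY control was 11.3 (6.37 to 23.6), and the XX control and the E11.5 KO could not be told from the XY control (intervals of 0.956 to 4.54 and 0.774 to 4.04). Irx3os, an RNA antisense to Irx3 that is listed separately, had 25 UMIs in the E11.75 KO and 2 or 3 in each other sample, against 606 UMIs of Irx3 in that KO sample.

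Runx1 behaved unlike the other 5. It stood at 196 CPM (186 to 206) in the XY control, 150.3 (141 to 160.4) in the E11.5 KO, 226 (213 to 241) in the E11.75 KO and 237 (225 to 248) in the XX control. The E11.5 KO was the lowest sample, at 0.767-fold of the XY control (0.705 to 0.832). The XX control was 1.21-fold higher (1.12 to 1.29) and the E11.75 KO 1.15-fold higher (1.07 to 1.25), the latter close to the shift of the median gene given below.

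With a threshold of 2-fold and at least 100 UMIs over both samples, 5 of the 6 genes could be counted, and Irx5 fell short. In the E11.75 KO over the XY control 4 of 5 were higher (Foxl2, Fst, Bmp2 and Irx3), beside 3.79% of all 9742 genes that passed the same minimum. Irx3 ranked 6, Bmp2 21, Foxl2 22 and Fst 47 from the highest of these genes, and Runx1 4686. The members were chosen with earlier results of these data known, so counts and ranks describe them and are no independent support. In the E11.5 KO over the XY control none of the 5 was 2-fold higher, with a background of 0.74%. In the XX control over the XY control 1 of 5 was (Fst), with a background of 0.48%. That call on Fst was lost, at a log2 ratio of 0.96, with means of single cells and in the second technical replicates, and Bmp2 passed 2-fold in the E11.5 KO (log2 1.34) with Sertoli cells added. The same 4 genes were 2-fold higher in the E11.75 KO than in the E11.5 KO, where 5.86% of all genes were. None of the 5 was 2-fold lower in any of these comparisons, in which the background of lower genes was 2.23%, 1.68%, 1.64% and 0.947% for the E11.5 KO, the E11.75 KO and the XX control over the XY control and for the E11.75 KO over the E11.5 KO.

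The median gene was itself shifted, by 0.19 in log2 in the E11.75 KO over the XY control, by 0.28 in the E11.75 KO over the E11.5 KO, and by -0.092 and -0.11 in the comparisons of the E11.5 KO and the XX control. Relative to it, Foxl2, Fst, Bmp2 and Irx3 at 2.15, 1.79, 2.18 and 2.84 remained far above the median gene, and Runx1 at 0.21 sat on it, with a log2 ratio of 0.0095 after TMM scaling. The balance of calls over all genes turned with that scaling, from 369 higher and 164 lower genes to 186 and 292 in the E11.75 KO over the XY control (69.2% and 38.9% higher), and from 545 and 88 to 176 and 262 over the E11.5 KO (86.1% and 40.2% higher). In the XX over the XY control it went from 47 higher and 161 lower to 60 and 122. Foxl2, Fst, Bmp2 and Irx3 stayed 2-fold higher under TMM in both comparisons of the E11.75 KO. In the E11.75 KO over the XY control the median log2 ratio moved with the 3′ UTR length of genes. It went from -0.14 in the shortest to 0.40 in the longest of 4 equal bins. Irx3 and Irx5 are in the bin of the shortest, where 1.85% of genes were 2-fold higher, Bmp2 in the next (2.75%), Foxl2 and Fst in the third (4.01%) and Runx1 in the longest (6.37%). From the shortest to the longest bin, the median log2 ratio went from -0.11 to 0.56 in the E11.75 KO over the E11.5 KO. Over the XY control it fell from -0.051 to -0.13 in the E11.5 KO and from 0.0063 to -0.19 in the XX control. The part of UTR length in these ratios was not tested.

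**Figure D1:**
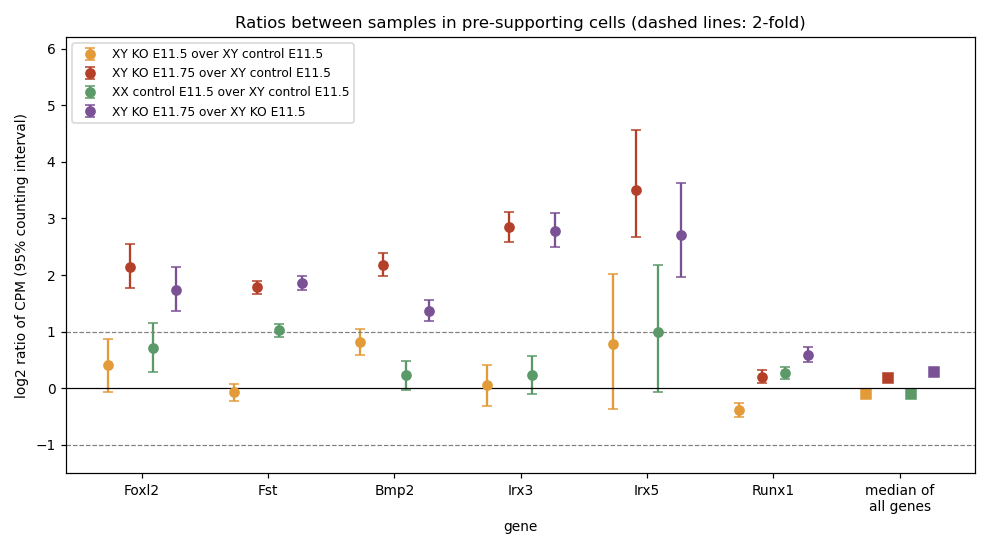
Log2 ratio of CPM between samples in pre-supporting cells (vertical axis, 95% counting intervals) for each gene and comparison (colours), with the median over all genes at the right (squares). Dashed lines mark 2-fold. Ratios of the E11.75 KO lie at or above 1.36 for every gene except Runx1 (0.21 and 0.59), while those of the E11.5 KO and the XX control over the XY control stay near or below 1.

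RNA from other cells was looked for among the same pre-supporting cells with marker lists. Endothelial markers summed to 28.7, 27.0, 28.5 and 12.1 CPM in the XY control, the E11.5 KO, the E11.75 KO and the XX control. Endothelial cells also express Irx3. Coelomic epithelium markers summed to 309, 429, 468 and 315 CPM, higher in both KO samples as Bmp2 was. These markers include Lhx9, also an early gonadal somatic marker above, so their sum is not of RNA from other cells alone. Bmp2 in coelomic epithelial cells stood at 19.3 CPM in the E11.5 KO and 61.9 in the E11.75 KO. Supporting-like markers summed to 75.1, 85.3, 91.3 and 79.3 CPM. Sertoli markers summed to 327, 73.1, 157 and 83.8 CPM, and Sox9 stood at 199.6, 20.1, 88.0 and 9.29 CPM. Interstitial markers summed to 292, 331, 388 and 312 CPM, adrenal markers to 98.2, 32.3, 19.6 and 156, and globin genes of red blood cells to 1851, 767, 1154 and 547. Germ cell, immune, neural crest and mesonephric tubule and epithelium markers stayed between 0.654 and 43.5 CPM. The part of these marker levels in the ratios was not tested.

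The share of pre-supporting cells with at least 1 UMI showed how the levels were spread over cells. Each cell was thinned to 3000 UMIs, which left out 173, 54, 93 and 3 shallower cells in the XY control, the E11.5 KO, the E11.75 KO and the XX control. Foxl2 was then seen in 1.84% (1.22 to 2.66), 3.20% (2.22 to 4.47), 11.1% (9.02 to 13.4) and 4.01% (2.21 to 6.64) of cells. Without thinning these shares were 3.84%, 5.81%, 16.3% and 18.8%, so the unthinned value of the XX control, the highest of the 4, came with its depth. In endothelial cells, a type outside the supporting lineage in which Foxl2 stood at 0.312 to 1.46 CPM, 0.164%, 0.362%, 0.699% and 0 of 80 cells (95% upper bound 4.51%) had a UMI at the same depth.

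Fst was seen in 16.6%, 14.3%, 42.7% (39.3 to 46.2) and 26.4% (21.8 to 31.3) of thinned pre-supporting cells in the same order of samples, against at most 2.10% of endothelial cells. Without thinning, immune cells held 4, 0, 7 and 19 Fst UMIs in 220, 73, 38 and 74 cells. In both controls Fst ranked higher by CPM in immune than in endothelial cells. Bmp2 was seen in 8.51%, 13.4%, 28.3% and 12.6% of thinned pre-supporting cells. Germ cells showed Bmp2 in at most 0.662%, but immune cells showed it in 16.1% (5.45 to 33.7, 31 cells) in the E11.75 KO and 4.48% in the XX control, and in none of 51 and 64 cells of the other samples. Whether immune cells express Bmp2 there or hold free RNA was not tested. Irx3 was seen in 4.16%, 4.27%, 26.5% (23.5 to 29.6) and 7.45% of pre-supporting cells, against at most 1.49% of immune cells. Irx5 was seen in 0.477%, 0.874%, 4.81% (3.46 to 6.50) and 0.287% of cells. Germ cells of the XY control showed it in 0.36% (0.044 to 1.29) at the same depth, and 1 of 74 XX immune cells had a UMI without thinning, so the Irx5 shares of the E11.5 samples could not be told from background. Runx1 was seen in 40.8%, 32.4%, 44.2% and 47.3%, against 0.699% to 1.31% of endothelial cells.

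More of the members were seen in 1 cell in the E11.75 KO. At 3000 UMIs, 48.4% (44.9 to 51.8) of its pre-supporting cells had UMIs of at least 2 of the 6 genes, against 14.6% in the XY control, 13.7% in the E11.5 KO and 23.5% in the XX control. At least 3 were seen in 20.9% (18.2 to 23.9), against 2.18%, 2.43% and 6.59%. Such shares rise with the shares of the single genes given above. Whether the genes met in the same cells beyond that was not tested.

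In the E11.75 KO and the XY control, Fst was seen more often in cells with a Foxl2 UMI than in cells without. In the E11.75 KO, 65 of 92 thinned pre-supporting cells with a Foxl2 UMI had one of Fst (70.7%, 60.2 to 79.7), against 39.2% (35.7 to 42.9) of cells without Foxl2. The XY control gave 15 of 27 (55.6%, 35.3 to 74.5) against 15.8% (14.0 to 17.8). The intervals overlapped in the XX control (8 of 14, 57.1%, 28.9 to 82.3, against 25.1%, 20.5 to 30.1) and in the E11.5 KO (21.2%, 8.98 to 38.9, against 14.0%, 11.9 to 16.4). Fst-positive cells of the E11.75 KO more often had Irx3 (34.6%, 29.7 to 39.9, against 20.4%, 16.8 to 24.3), while Bmp2 was seen less often in them (23.1%, 18.8 to 27.8, against 32.1%, 28.0 to 36.5). The intervals for Bmp2 barely missed each other and overlapped with Sertoli cells added (21.7%, 17.7 to 26.04, against 25.6%, 22.2 to 29.3). In the other samples both pairs had overlapping intervals. All cells of a sample share a pool, so these intervals describe counts of cells and not embryos.

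Cells with Sox9, the driver of the Sertoli path, less often had Bmp2 in the E11.75 KO and the XY control, whereas Foxl2 was not separated between pre-supporting cells with and without Sox9. In the E11.75 KO, 119 thinned pre-supporting cells had a Sox9 UMI, and Bmp2 was seen in 10.9% of them (5.95 to 18.0) against 31.2% (27.8 to 34.7) of the rest. In the XY control the shares were 3.64% (1.95 to 6.15) and 10.1% (8.37 to 12.004). The E11.5 KO gave no separation for Bmp2, with 6 of 50 Sox9-positive cells (4.53 to 24.3%) against 13.5% (11.4 to 15.8) of the rest. Foxl2 was seen in 17 of the 119 Sox9-positive cells (14.3%, 8.55 to 21.9) and in 10.5% (8.38 to 13.02) of the rest in the E11.75 KO, which overlap. In the XY control 4 of 357 Sox9-positive cells (1.12%, 0.306 to 2.84) had Foxl2, and in the E11.5 KO none of 50 did (upper bound 7.11%). Fst in Sox9-positive cells of the E11.75 KO (52.9%, 43.6 to 62.2) and Runx1 (53.8%, 44.4 to 63.0) reached above the shares of the rest (41.0%, 37.4 to 44.7, and 42.6%, 38.9 to 46.3) with overlapping intervals. With Sertoli cells added the XY control gave other results: Foxl2 was seen in 0.517% (0.168 to 1.201) of Sox9-positive cells against 1.92% (1.22 to 2.86) of the rest, and Fst in 6.095% (4.67 to 7.79) against 15.9% (13.9 to 18.1), both apart. For both genes the intervals of the E11.75 KO still overlapped with Sertoli cells added.

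**Figure D2:**
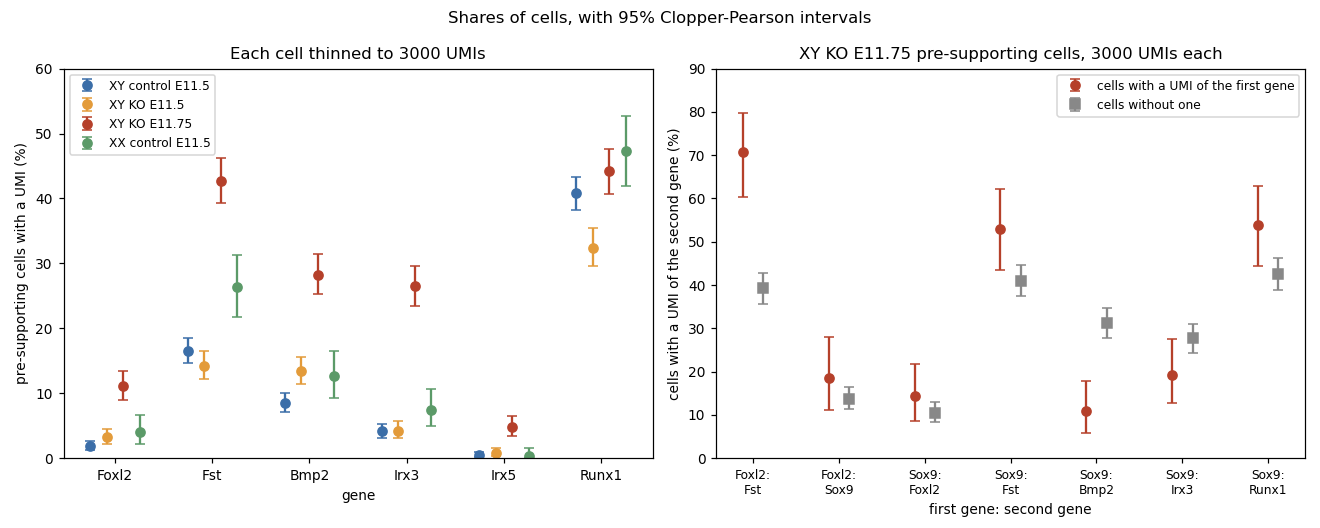
Left, percent of pre-supporting cells with a UMI (vertical axis) of each gene after thinning to 3000 UMIs, by sample. Right, percent of the E11.75 KO pre-supporting cells with a UMI of the second gene among cells with (circles) and without (squares) a UMI of the first. Bars are 95% Clopper-Pearson intervals. Fst is more frequent in Foxl2-positive cells (70.7% against 39.2%) and Bmp2 less frequent in Sox9-positive cells (10.9% against 31.2%).

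Cells named as Sertoli cells held more Foxl2 and Fst RNA in the E11.75 KO than in the XY control. Only the XY control (752 cells) and the E11.75 KO (168 cells) had enough of them, with 24 in the E11.5 KO and 2 in the XX control. Foxl2 stood at 0.722 CPM (3 UMIs) in the XY control and 30.2 (20.5 to 42.9, 31 UMIs) in the E11.75 KO. Fst stood at 4.09 (2.38 to 6.55) and 145 (123 to 170.4), a ratio of 34.6 (21.4 to 62.5), while Runx1 stood at 134 (123 to 146) and 176 (152 to 204). Fst and Runx1 alone reached 100 UMIs in that comparison, and Fst was 2-fold higher, with a background of 4.65% of 7309 genes. Other markers differed between these cells too. The 8 Sertoli markers summed to 2483 CPM in the XY control and 1562 in the E11.75 KO, supporting-like markers to 50.6 and 119, coelomic epithelium markers to 84.0 and 143, interstitial markers to 231 and 352, and mesonephric tubule and epithelium markers to 27.2 and 58.4. Their part in the Foxl2, Fst, Bmp2 and Irx3 levels was not tested. In the thinned E11.75 KO Sertoli cells, 14 of 163 had Foxl2, and 11 of these 14 also had Sox9 (78.6%, 49.2 to 95.3), not separated from the 83.2% (76.2 to 88.8) of cells without Foxl2. The Sertoli name was given after clustering with such genes, so it is not independent of their levels.

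Supporting-like cells, the progenitors of the rete structures, came next to pre-supporting cells for Foxl2 among types with 50 cells in the XY and XX controls and in the E11.5 KO. Foxl2 stood at 7.07 CPM (4.32 to 10.9), 11.3 (7.34 to 16.7), 69.4 (51.8 to 91.0) and 8.87 (4.43 to 15.9) in the XY control, the E11.5 KO, the E11.75 KO and the XX control. In the E11.75 KO the interval of supporting-like cells began just above that of pre-supporting cells, which ended at 51.7. Fst in these cells stood at 58.3, 30.4, 203 and 65.3 CPM, with the E11.5 KO lowest at 0.523-fold of the XY control (0.386 to 0.696). Runx1 stood at 71.0, 51.3, 154 and 65.3 CPM, again lowest in the E11.5 KO and highest in the E11.75 KO, while the 2 controls were not separated for either gene. Bmp2 was low there, between 4.84 and 10.7 CPM, and its intervals overlapped. Both genes with enough UMIs, Fst and Runx1, were 2-fold higher in the E11.75 KO than in the XY control, beside 2.78% of all genes, and the call on Runx1 (log2 1.11) was lost under TMM scaling (0.90).

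The coelomic epithelium, from which many gonadal somatic cells derive, gave few Foxl2 UMIs but held UMIs of Runx1, Bmp2, Fst and Irx3 in every sample. Bmp2 stood at 19.0 CPM (16.5 to 21.8), 19.3 (16.7 to 22.3), 61.9 (54.8 to 69.7) and 21.02 (17.1 to 25.6), so that only the E11.75 KO stood apart. Irx3 stood at 5.93, 5.51, 27.9 (23.1 to 33.3) and 4.62 CPM, again highest in the E11.75 KO. Runx1 stood at 26.5, 33.4, 49.3 and 25.2 CPM and Fst at 7.14, 6.61, 13.5 and 9.25, each highest in the E11.75 KO too. Foxl2 gave at most 11 UMIs in any sample. Of the 4 genes with 100 UMIs, Bmp2 and Irx3 were 2-fold higher in the E11.75 KO than in the XY control, with a background of 1.97%. Runx1 was 1.26-fold higher in the E11.5 KO than in the XY control here (1.07 to 1.48), opposite to pre-supporting cells.

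**Figure D3:**
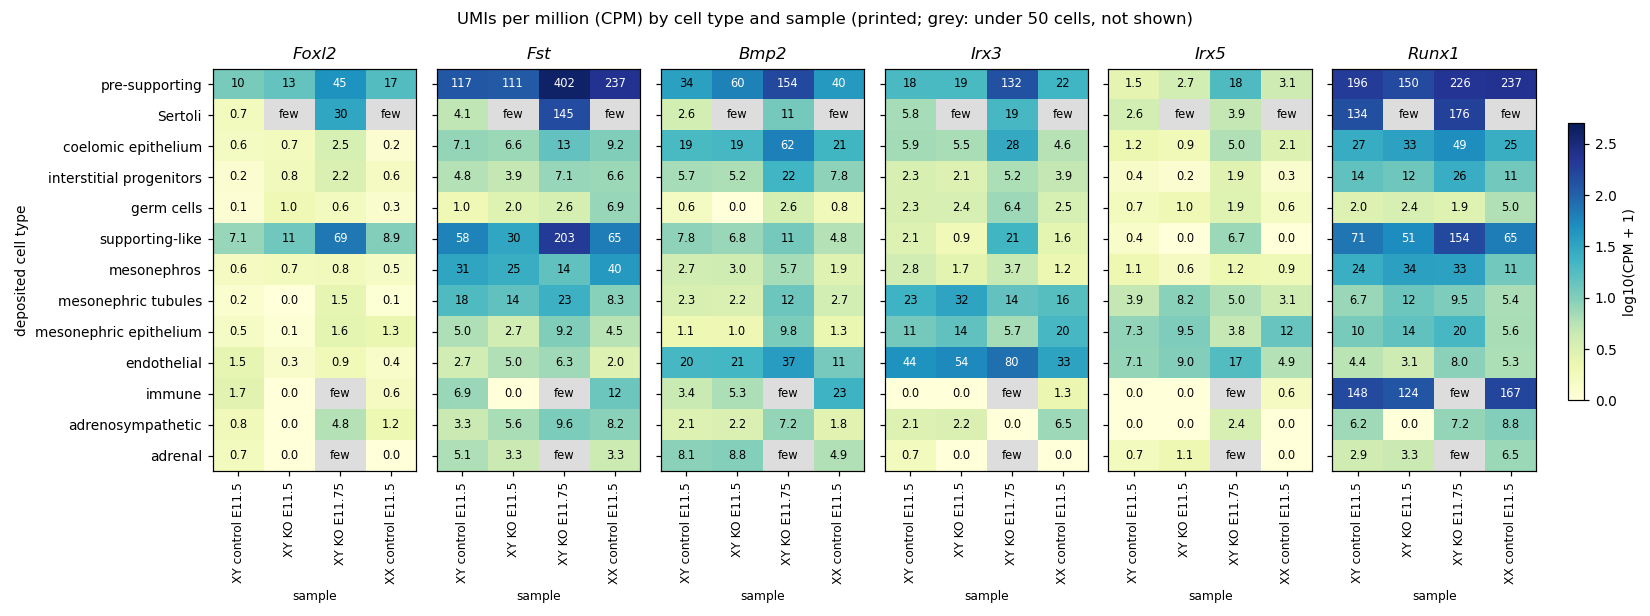
CPM of each gene by deposited cell type (rows) and sample (columns), printed in each field and coloured by log10(CPM + 1); grey fields have fewer than 50 cells. Foxl2 lies mostly in pre-supporting, supporting-like and E11.75 KO Sertoli cells, Irx3 and Irx5 also appear in endothelial and mesonephric cells, and Runx1 also in immune cells (124 to 167 CPM).

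The genes differed in how far their UMIs lay in pre-supporting cells. Pre-supporting cells held 51.9% of the Foxl2 UMIs of the XY control (154 in all), 52.9% of those of the E11.5 KO, 62.2% of those of the E11.75 KO and 73.9% of those of the XX control. Such shares, here and below, also depend on how much of each sample is pre-supporting cells, which differed between samples. For Fst the mesonephros held 47.7% in the XY control and 53.4% in the E11.5 KO, against 7.93% in the E11.75 KO, where pre-supporting cells held 72.2%. Mesonephric Fst stood at 30.5 CPM (28.9 to 32.2), 25.4 (23.9 to 27.0), 14.0 (12.2 to 16.1) and 39.6 (37.3 to 42.0), lowest in the sample where pre-supporting Fst was highest.

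In the E11.5 samples Irx3 and Irx5 had their highest levels in endothelial or mesonephric cells, and the endothelial cells can come from gonad or mesonephros. In endothelial cells Irx3 stood at 44.5, 53.9, 79.6 and 32.7 CPM, the highest of the types with 50 cells in all samples but the E11.75 KO. In mesonephric tubules it stood at 22.7 (19.7 to 26.1), 31.8 (27.5 to 36.6), 13.6 (9.96 to 18.1) and 16.0 (13.4 to 19.1) CPM, so that the later KO was lowest. Irx5 in the mesonephric epithelium stood at 7.32, 9.51, 3.79 and 12.5 CPM and in endothelial cells at 7.11, 9.04, 17.0 and 4.85, so that these types were not separated in the XY samples of E11.5. In the E11.75 KO, pre-supporting (17.9 CPM) and endothelial cells had the highest Irx5, with overlapping intervals, and pre-supporting cells the highest Irx3. Pre-supporting cells held 60.9% of the Irx3 and 43.9% of the Irx5 UMIs of that sample, against 16.0% of Irx3 UMIs in the XY control.

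Bmp2 was above the XY control in the E11.75 KO in all 9 cell types with 50 cells and at least 20 UMIs over both samples, and its interval lay above 1-fold in 8 of them, the exception being supporting-like cells. The median gene was also up in that comparison in each of these types, by 0.11 to 0.19 in log2. The log2 ratios of Bmp2 ran from 0.51 in supporting-like cells through 1.70 in coelomic epithelium to 3.03 in mesonephric epithelium. Irx3 was higher in 8 of 10 types, with its interval above 1-fold in 6, and lower in mesonephric tubules and mesonephric epithelium. Fst was higher in 8 of 9 types, with its interval above 1-fold in 5, and lower in the mesonephros. Runx1 was higher in all 9, with its interval above 1-fold in 7. Its log2 ratio was 0.90 in coelomic epithelium, 0.86 in interstitial progenitors and 1.11 in supporting-like cells against 0.21 in pre-supporting cells.

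**Figure D4:**
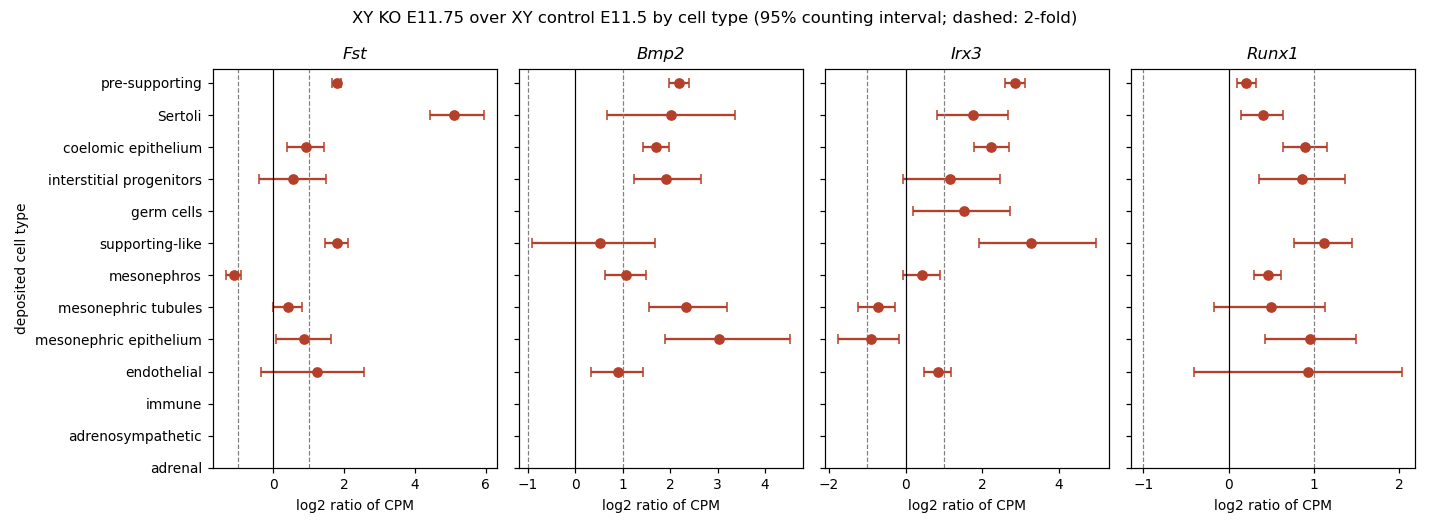
Log2 ratio of CPM of the E11.75 KO over the XY control of E11.5 (horizontal axis, 95% counting intervals) by cell type for the genes with enough UMIs. Dashed lines mark 2-fold and types under 50 cells or 20 UMIs are left blank. Fst is lower in the mesonephros (-1.12) and Irx3 in mesonephric tubules (-0.73). The ratios of Bmp2 and Runx1 are above 0 in every type shown, though not all of their intervals are.

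Across 48 combinations of cell type and sample with at least 50 cells, the levels of the 6 genes were set beside each other, as a description only because the points share libraries and depth. Irx3 and Irx5 were the closest pair (Pearson r = 0.85 of log2(CPM + 1)), followed by Foxl2 and Fst (r = 0.83). Runx1 was nearer to Foxl2 and Fst (0.66 and 0.65) than to Irx3 or Irx5 (0.10 and 0.020), and Bmp2 lay between 0.33 and 0.51 with all others. Of all genes with at least 1000 UMIs, those most like Foxl2 were Fst, Tmem114 (0.83) and Galnt1 (0.82). Those most like Fst were Gm26700, Tmem171 and Rmst (each 0.81), and those most like Bmp2 were Csgalnact1 (0.82), Rgs2 (0.79) and Ptpn4 (0.78). Rgs2, a regulator of G-protein signalling, stood at 161, 316, 487 and 132 CPM in pre-supporting cells, in the order of samples used above. Irx3 was followed by Shroom4, C130074G19Rik and Cav1 (each 0.78), Irx5 after Irx3 by Cav1 (0.72) and Fam84b (0.69), and Runx1 by Gas6 (0.85), Ifi27l2a (0.85) and Prkcd (0.82). These names depended on the settings. With a minimum of 5000 UMIs none of the 3 named for Irx3 or for Irx5 and 1 of those for Fst remained, and with a pseudocount of 5 only 1 remained for Foxl2 and for Fst.

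The other genes of these pathways were counted in pre-supporting cells with the same threshold. Of 18 ovary-side genes, 15 had enough UMIs, and their median log2 ratio was 0.19 in the E11.5 KO, 0.46 in the E11.75 KO and 0.25 in the XX control (all relative to XY control cells), against -0.092, 0.19 and -0.11 for all genes. Of these, 2 were 2-fold higher in the E11.75 KO, Axin2 (a WNT target and inhibitor, 50.3 against 19.7 CPM, log2 1.35) and Gng13 (a G-protein subunit, 74.5 against 15.5 CPM, log2 2.26), and 1 was lower, Sprr2d (-3.07), beside 3.79% and 1.68% of all genes. In the E11.5 KO none was higher and 3 were lower: Sprr2d (-2.40), the R-spondin receptor gene Lgr5 (-1.45) and Kitl (-1.04), which encodes KIT ligand, beside 0.74% and 2.23% of all genes. The call on Kitl was lost under TMM scaling (-0.95). Kitl stood at 729 CPM in the XY control, 354 in the E11.5 KO, 1000.4 in the E11.75 KO and 639 in the XX control. In the XX control 1 was higher, Sprr2d (244.9 against 92.3 CPM, log2 1.41), beside 0.48% of all genes, so that Sprr2d was higher in XX and lower in both KO samples. Between the KO stages, 4 of the 15 were 2-fold higher in the E11.75 KO, Gng13 (2.08), Lgr5 (1.65), Kitl (1.499) and Axin2 (1.09), and 1 was lower, the GATA cofactor gene Zfpm1 (-1.02), beside 5.86% and 0.947% of all genes. That of Axin2 was lost under TMM scaling (0.81).

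Of 10 activin and BMP ligands and related secreted factors, 5 had enough UMIs and none was 2-fold higher or lower over the XY control in any of the 3 samples, where 0.48% to 3.79% of all genes were higher and 1.64% to 2.23% lower. Between the KO stages none was higher and 1 was lower in the E11.75 KO, Inha (log2 -1.24), beside 5.86% and 0.947% of all genes. Bmp7 had a log2 ratio of 0.74 (0.41 to 1.08) in the E11.75 KO, and over the XY control Inha, which encodes the inhibin alpha subunit, had one of -0.88 (-1.06 to -0.71), which passed 2-fold under TMM scaling (-1.08). Of 14 receptors and effectors, 11 had enough UMIs, and 1 was 2-fold higher in the E11.75 KO, the activin receptor gene Acvr1b (log2 1.08), beside 3.79% of all genes. This count does not set the list apart, and the call was lost under TMM scaling (0.88). The median of the 11 there was 0.59, against 0.19 for all genes. In the XX control 2 of the 11 were lower, Acvr1 (-1.23) and Smad5 (-1.21), and none was higher, beside 1.64% of all genes lower. Smad5, which transmits BMP signals, stood at 128, 100.3, 237 and 55.4 CPM in the order of samples used above.

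Among 13 BMP targets and inhibitors, 9 had enough UMIs in the E11.5 KO and 8 in the E11.75 KO. Fstl1, a follistatin-like secreted protein, was 2-fold higher in the E11.75 KO (239.9 against 110.1 CPM, log2 1.12), beside 3.79% of all genes. The call was lost under TMM scaling (0.93). None of 8 was 2-fold higher or lower in the XX control, where 0.48% and 1.64% of all genes were. That count does not set the list apart in the XX control, and counts of this list in the KO samples are not reported here. The other Iroquois genes Irx1, Irx2, Irx4 and Irx6 never reached 100 UMIs over a pair of samples in pre-supporting cells. Of the other RUNX family genes listed, 2 had enough UMIs. Cbfb, the shared partner of RUNX proteins, was 2-fold lower in the E11.5 KO (72.1 against 157 CPM, log2 -1.12), beside 2.23% of all genes. Its log2 ratio was -0.48 in the E11.75 KO and -0.91 (-1.06 to -0.76) in the XX control, so the XY control was the highest sample. Runx1t1 differed by 0.17 in the E11.5 KO and 0.52 in the E11.75 KO, with intervals that reached 0.

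Of 11 testis-side genes, 5 had enough UMIs over the XY control, of which 3 were 2-fold lower in the E11.5 KO, 1 in the E11.75 KO and 3 in the XX control, beside 2.23%, 1.68% and 1.64% of all genes. Sox9 was 2-fold lower in all 3 samples than in the XY control (log2 -3.31, -1.18 and -4.41). Sry was lower in the E11.5 KO (5.14 against 14.6 CPM, log2 -1.49) and stood at 14.4 CPM in the E11.75 KO, and no Sry UMI was seen in the XX pre-supporting cells (95% upper bound 0.544 CPM). Cyp26b1, which breaks down retinoic acid, was lower in the E11.5 KO (-1.49) and the XX control (-1.60), and had a log2 ratio of -0.64 in the E11.75 KO. The E11.75 KO thus held higher Foxl2, Fst, Bmp2, Irx3 and Irx5 than the E11.5 KO together with higher Sox9 (88.0 against 20.1 CPM) in cells of the same name.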

How the data were processed

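Gonads with mesonephros from pools of embryos were dissociated with trypsin, fixed in methanol and sequenced with 10x Genomics 3′ v3.1 chemistry. The authors aligned reads to mm10, with the second exon of Sry added, using Cell Ranger 6.1.1 (per the labels), removed doublets with DoubletFinder, filtered XY cells by limits on UMIs, genes, mitochondrial and globin reads and XX cells by removing clusters, and integrated the samples in Seurat. The deposited values are raw UMI counts per gene and cell, with a deposited table of cell types, which were used as given. The methods give the same 4 numbers of cells as the files but with the stages of the KO samples exchanged, and the assignment of the files and labels was used here. In the files only the smaller KO sample has 1 run, as the methods state for E11.75.

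UMIs were summed per cell type and sample over 52745 cells and divided by all UMIs of those cells (CPM). With 1 sample per group there was no test. Exact 95% intervals (Poisson for CPM, Clopper-Pearson for shares, binomial for ratios, with a prior of 0.5 added to each sum for the log2 ratio) cover counting error only. Ratios were counted from 2-fold upward where the sum of both samples reached 100 UMIs, alike for all genes, and types under 50 cells were left out of comparisons. Shares were taken after thinning each cell to 3000 UMIs. Total UMIs per sample were 37841392 to 105192238. Seed matches were searched in the 3′ UTRs of GENCODE M21, and miRNA sequences came from RefSeq. Genes named as most like a member were the 3 with the highest Pearson r, and genes named from pathway lists were mainly those past 2-fold. The member genes and gene lists were chosen with earlier results of these data known. Alternatives were edgeR 4.0.16 TMM scaling (R 4.3.3), other totals, means of single cells, depth limits, adding Sertoli cells, other priors, minimums and folds, each technical replicate alone, and other thinning depths. Summing, intervals and thinning ran in Python 3.11.15 (numpy 2.4.6, scipy 1.17.1, pandas 2.3.3). Only the log2 ratios and their binomial intervals were tested on simulated counts. One gene of the pathway lists is not reported here.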

Additional observations from a re-analysis of the deposited data

Results flagged for a closer look

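Some members had ratios of opposite sign in another cell type than in pre-supporting cells, with both counting intervals clear of 0. With 1 sample per group these differences between cell types were not tested. Runx1 in the E11.5 KO over the XY control had a log2 ratio of -0.38 in pre-supporting cells but of 0.33 (0.099 to 0.56) in coelomic epithelium, 0.50 (0.39 to 0.62) in the mesonephros, 0.83 (0.32 to 1.35) in mesonephric tubules and 0.46 (0.017 to 0.92) in mesonephric epithelium. Between the controls, Runx1 was lower in the XX mesonephros (-1.15, -1.33 to -0.97) and higher in XX pre-supporting cells (0.27).

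Fst in the mesonephros was lower in the E11.75 KO than in the XY control (-1.12, -1.34 to -0.91) and than in the E11.5 KO (-0.86, -1.08 to -0.64), against 1.79 and 1.86 in pre-supporting cells. In mesonephric tubules Fst was lower in the XX than in the XY control (-1.08, -1.52 to -0.66), against 1.02 in pre-supporting cells.

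Irx3 in mesonephric tubules was lower in the E11.75 KO than in the XY control (-0.73, -1.24 to -0.27) and than in the E11.5 KO (-1.21, -1.72 to -0.75), against 2.84 and 2.79 in pre-supporting cells. In mesonephric epithelium it was lower in the E11.75 KO than in the E11.5 KO (-1.27, -2.10 to -0.59).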

How the results depend on the processing

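No paired analysis was possible because each group has 1 sample and no result comes from a test. The number of members 2-fold higher in pre-supporting cells of the E11.5 KO over the XY control went from 0 to 1 (Bmp2) with Sertoli cells added and to 1 (Bmp2) at 1.5-fold. For the XX over the XY control it went from 1 (Fst) to 0 with means of single cells and 0 in the second technical replicates (log2 0.96 in both), and to 2 (Foxl2 and Fst) with Sertoli cells added and at 1.5-fold. For the E11.75 KO it stayed between 3 and 5 of the members over either sample under the alternatives run. The shares of all genes under these settings are not given here, so these counts do not set the members apart. No pre-supporting ratio whose interval excluded 0 changed sign. TMM scaling moved 6 of 24 log2 ratios by more than their counting error, with Runx1 in the E11.75 KO over the XY control at 0.0095 (-0.11 to 0.12), and adding Sertoli cells moved 14. Shares moved with the thinning depth in 19 of 24 cases at 2000 UMIs and 17 at 5000. With 8mers alone, Runx1 kept 1 site and the other 5 genes none. Irx5 stayed too sparse for most comparisons, and the spread between embryos is unknown.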
